A study of Mus musculus with 24 samples.

Results

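The last of 4 equal lengths of the wild-type mouse intestine, labelled segment 4, was compared with the first, labelled segment 1, over all 15267 genes that the arrays name. The samples were chosen by their labels alone: 3 arrays of wild-type segment 1 and 3 of wild-type segment 4, which make 6 of the 24 arrays of the series. Both groups came from untreated male C57BL/6 mice aged 3 to 3.5 months with an intact Amacr gene. Each array holds total RNA from the layer scraped off the opened intestine after a saline rinse. The other arrays cover the middle segments and the same 4 segments of mice without Amacr, which encodes a racemase of peroxisomes needed for bile acid synthesis. The knockout mice share the strain, sex and age, and their segments 1 and 4 serve below as a second set of animals. Every value is a level on the log2 scale, so that a difference of 1 is a 2-fold change, and every difference is segment 4 minus segment 1. A gene was called, that is rose or fell toward segment 4, where limma's adjusted p, by Benjamini-Hochberg over all genes, was under 0.05. Where leaving out 1 array removed or added the call of a named gene, or moved a called difference by over 1.5 times, the array is named with the difference found without it.

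The mammalian small intestine divides its work along its length. The proximal end meets food first and takes up most iron, calcium, sugar and fat, while the distal end reclaims bile acids and cobalamin. GATA4, a transcription factor of the proximal and middle intestine, holds distal genes off, and FXR, a nuclear receptor for bile acids, answers their uptake in the distal end by inducing the hormone FGF15.

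The labels do not say which end segment 1 is, and they name the cell type endothelial. By marker genes segment 1 was the proximal and segment 4 the distal end. All 11 measured distal markers were called higher in segment 4, with a median difference of 2.55, and 8 of the 12 measured proximal markers were called lower, with a median of -2.06. Over all genes, 23.6% were called, 10% higher and 13.6% lower, and the median difference was 0.03. The proximal marker called in the other direction was Npc1l1, the cholesterol importer of the brush border, which stood 0.59 higher in segment 4. Markers of the colon gave no common direction: Saa1 rose, Aqp8 and Slc26a3 fell, and the other 5 of the 8 measured were not called. Of the 10 measured markers of stomach and Brunner glands 0 were called by limma, and 2 had an unadjusted p under 0.05. Npc1l1 (0.48 to 0.49) was not called without replicate 1 of segment 1 or replicate 3 of segment 4.

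Epcam, an adhesion protein of epithelium, had levels of 13.36, 13.50 and 13.38 in segment 1 and 13.90, 13.93 and 13.95 in segment 4, and Vil1, the villin of the brush border, 13.40, 13.36 and 13.42 in segment 1 and 13.52, 13.52 and 13.60 in segment 4. The highest value of any gene on any array was 14.74. Of 11 epithelial markers 7 were called higher in segment 4, among them Krt19, a keratin, at 1.37 (SE 0.25, adjusted p = 0.000373). Pecam1, an adhesion protein of vessel endothelium, lay between 4.77 and 5.73 over the 6 arrays. Of the 13 measured vessel markers 0 were called by limma, and 1 had an unadjusted p under 0.05, while 1 was called higher without replicate 3 of segment 4. Levels of different probe sets cannot be set against each other, so these values do not give the shares of epithelial and endothelial RNA. In a scraped layer of mixed cells, fewer cells of a type and less RNA per cell cannot be told apart, which holds for every difference below.

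Between the ends, 3601 of the 15267 genes were called, 1530 higher and 2071 lower in segment 4. A difference of at least 2-fold was reached by 760 of these (4.98% of all genes), 297 higher and 463 lower, and the other 2841 called genes differed by less. Just under 2-fold lay Hdhd3 and Tgds, both at -1.0 after rounding, and Tm7sf2 at 1.00. Just over it lay Oxnad1 and Bet1 at -1.0 and Adm at 1.00. The 3 arrays of one segment lay wholly above or below the 3 of the other for 5895 genes, 38.6% of all. Among the genes called and at least 2-fold apart, the arrays overlapped for 8 of the 297 that were higher and 10 of the 463 that were lower. These genes were selected for wide differences in the same arrays, so that little overlap follows largely from the selection.

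The middle segments were in most cases between the ends. For the 297 distal genes the median gene had covered 12.2% of the way from its segment 1 mean to its segment 4 mean in segment 2, and 51.7% in segment 3. For the 463 proximal genes these figures were 20.7% and 63.4%. The segment 2 mean was nearer to segment 1 for 262 of the distal and 392 of the proximal genes. A middle segment lay more than 0.5 outside the range of both ends for 14 of the distal genes (7 above and 7 below) and 13 of the proximal genes (4 above and 9 below).

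Arrays within a segment also differed in these genes, which were selected in the same arrays. In segment 4, replicate 3 was the highest of the 3 arrays for 301 of the 463 proximal genes and the lowest for 149 of the 297 distal genes. In segment 1, replicate 1 was the lowest for 322 of the proximal genes and the highest for 159 of the distal genes. The marker lists of the ends did not place that array nearer to segment 4. Its mean over the distal markers was 7.31, against 7.64 and 8.08 in replicates 2 and 3. Over the proximal markers it was 10.24, against 10.13 and 10.36. Replicate 1 of segment 1 was also the array with pancreas markers, at a mean of 9.19 over the 12 measured against 6.79 and 6.67 in the other arrays of that segment and 6.41 to 6.52 in segment 4. Without that array 3496 genes were called, 3074 of them also called with it, and 831 of the 3496 were at least 2-fold apart.

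The same comparison in the knockout mice called 4633 genes, 30.3% of all. Both genotypes called 2768 genes in the same direction, which is 76.9% of the wild-type calls and 59.7% of the knockout calls. D7Ertd443e, named after its values were seen, was called in opposite directions, at 0.30 in wild-type and -0.19 in knockout arrays. All 760 genes with a 2-fold difference in the wild-type had the same sign in the knockout, and 729 were called there too. For the difference between the genotypes itself, limma called 0 genes, with a lowest adjusted p of 0.311 and 1295 genes (8.48%) at an unadjusted p under 0.05.

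**Figure D1:**
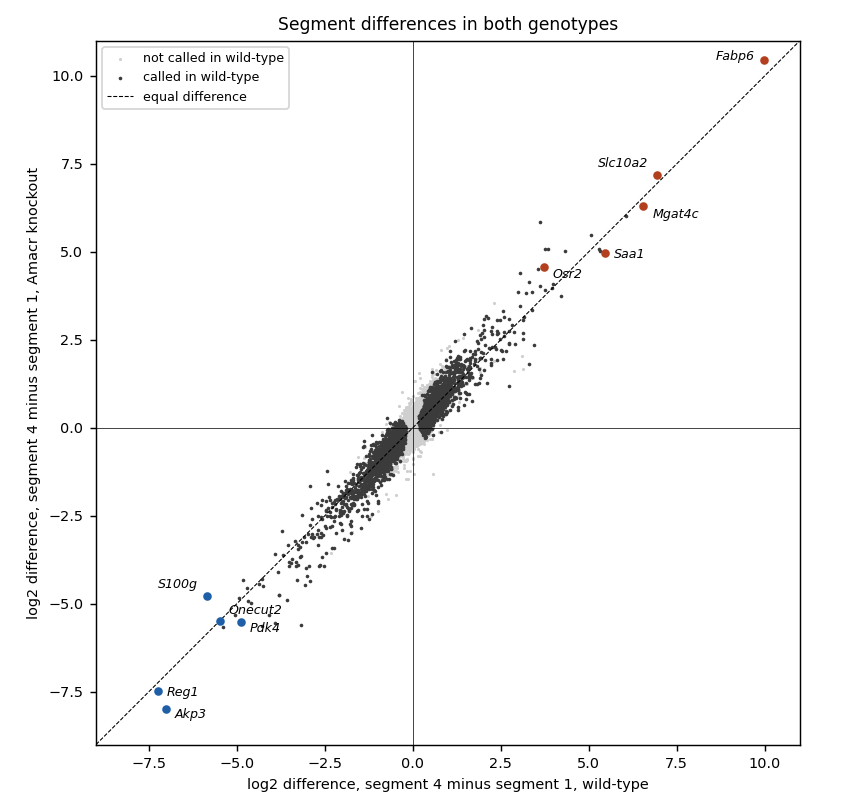
Each point is 1 of 15267 genes: the horizontal axis gives the log2 difference segment 4 minus segment 1 in wild-type arrays and the vertical axis the same in Amacr knockout arrays (means of 3 arrays per segment), with genes called in the wild-type in dark grey. Points lie along the dashed line of equal difference from Reg1 at -7.25 and -7.47 to Fabp6 at 9.97 and 10.45.

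Bile acid recovery held the largest rise. Fabp6, which carries bile acids through the ileal enterocyte, had levels of 3.98, 3.89 and 5.69 in segment 1 and 14.66, 14.50 and 14.32 in segment 4, a 1005-fold difference. The measured difference of 9.97 (SE 0.38, adjusted p = 5.44e-13) was the widest of all 15267 genes, and replicate 3 of segment 1, at 5.69, was the only array of that segment above 4. Levels of Fabp6 lay near both ends of the scale, which ran from 2.92 to 14.74 over all genes and arrays, where a true difference can be understated. Slc10a2, the sodium-dependent importer of the apical membrane, had levels of 4.15, 4.45 and 4.60 in segment 1 and 11.53, 11.13 and 11.40 in segment 4, a difference of 6.95 (SE 0.23, adjusted p = 1.02e-13) or 124-fold. Both genes were near the low end of the scale in segment 2 as well, with means of 4.22 and 4.49, and Fabp6 had reached 12.21 and Slc10a2 7.06 in segment 3.

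The exporter of the basolateral membrane, made of the subunits encoded by Slc51a and Slc51b, differed far less. Slc51a stood at 10.48, 10.41 and 10.74 in segment 1 and 12.55, 12.44 and 12.42 in segment 4, so that segment 1 already had a level above 10. The difference was 1.93 (SE 0.15, adjusted p = 1.02e-08), and that of Slc51b 1.78 (SE 0.23, adjusted p = 6.2e-06). Fgf15, the hormone that reports bile acid uptake to the liver, was lower in replicate 3 than in the other arrays of segment 4, with levels of 5.54, 5.29 and 5.54 in segment 1 and 8.88, 10.04 and 7.81 in segment 4 and a difference of 3.45 (SE 0.64, adjusted p = 0.000411). Nr1h4, which encodes FXR, rose 4.08-fold, with a difference of 2.03 (SE 0.23, adjusted p = 1.83e-06).

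Other genes of bile acid handling were proximal. Slc27a2, a very-long-chain acyl-CoA synthetase that also activates bile acid precursors, had levels of 11.12, 11.94 and 11.80 in segment 1 and 7.77, 8.62 and 8.66 in segment 4, a fall of 9.65-fold. Nr0b2, which encodes the repressor SHP, is in liver a target of FXR, yet its difference was -1.82 (SE 0.28, adjusted p = 6.5e-05), in the direction opposite to those of Nr1h4 and Fgf15. Abcc2 and Abcc3, exporters of conjugates, were lower by 3.94-fold and 2.53-fold. Baat, the enzyme that joins bile acids to taurine, and Abcg2, an apical exporter, were higher, at 0.48 and 0.90. In all, 8 of 18 measured members were higher and 4 lower, with a median of 0.26.

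The start sites of the Fabp6 and Slc10a2 genes are shown because these were the genes with the largest rises. The windows are from RefSeq on GRCm38.p6, run from 250 bases before to 50 after the start, and are read along the gene's strand. For Fabp6 the window is chr11:43601513-43601812 on the minus strand, and for Slc10a2 it is chr8:5105238-5105537 on the minus strand. In Fabp6, capitals mark matches to an inverted repeat of the nuclear receptor core site with 1 base between, AGGTCANTGACCT, with up to 2 mismatches, the arrangement that FXR is known to bind. In Slc10a2, capitals mark a match to the HNF1 palindrome GTTAATNATTAAC, with up to 2 mismatches, and then the CDX site TTTATG.
Fabp6: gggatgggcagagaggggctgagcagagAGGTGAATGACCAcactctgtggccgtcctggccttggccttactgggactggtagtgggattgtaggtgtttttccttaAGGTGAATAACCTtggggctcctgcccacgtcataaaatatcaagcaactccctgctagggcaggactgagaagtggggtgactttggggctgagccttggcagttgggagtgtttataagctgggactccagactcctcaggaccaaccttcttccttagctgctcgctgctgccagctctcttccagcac
Slc10a2: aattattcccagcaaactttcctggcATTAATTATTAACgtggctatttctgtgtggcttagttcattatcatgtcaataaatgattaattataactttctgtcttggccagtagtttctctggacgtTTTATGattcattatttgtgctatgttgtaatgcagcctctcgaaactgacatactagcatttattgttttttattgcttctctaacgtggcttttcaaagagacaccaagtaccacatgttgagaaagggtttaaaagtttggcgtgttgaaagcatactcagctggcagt
The Fabp6 matches begin 222 and 142 bases before the start, and each has 2 mismatches. The Slc10a2 matches begin 224 and 122 bases before the start, the palindrome with 1 mismatch and the CDX site with none. The Fabp6 window also holds, in lower case and on the other strand, a CDX site, a sterol regulatory element, an HNF4 core and a TATA box without a mismatch, which begin 111, 69, 62 and 29 bases before the start. Such inverted repeats occurred in 1.09% of the 15474 windows of measured genes, HNF1 palindromes in 1.00% and CDX sites in 7.76%, on either strand. A match is only a likeness of letters.

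Cobalamin bound to intrinsic factor enters through cubilin and amnionless. Cubn, which encodes cubilin, had levels of 7.60, 10.38 and 10.63 in segment 1 and 11.66, 11.94 and 12.66 in segment 4 and a difference of 2.55 (SE 0.59, adjusted p = 0.00321). Replicate 1 of segment 1 was the lowest array by far, and the groups did not overlap. Amn was higher by 0.98, and Lgmn, a lysosomal protease, by 0.77. Fcgrt, which encodes the neonatal Fc receptor, and Ctsz, a cathepsin, were lower, at -0.76 and -0.55. Over the list 3 of 19 measured members rose and 3 fell (31.6% called, against 23.6% of all genes). With array weights, 6 were called lower. Lgmn (0.54 to 0.63) was not called without replicate 1 of segment 1 or replicate 3 of segment 4, and Cubn differed by 1.58 without replicate 1 of segment 1. Cubn was not called in a fit of the 6 arrays.

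Iron and haem genes were proximal where they were called: 6 of 14 measured members were lower in segment 4 and 0 higher, though 2 were called higher without replicate 3 of segment 4. With array weights or without the 5 arrays high in pancreas, fat or muscle markers, 3 were called higher. Slc46a1, a folate transporter that also moves haem, had levels of 11.08, 11.87 and 11.96 in segment 1 and 6.89, 6.97 and 8.19 in segment 4, a 19.5-fold difference of -4.29 (SE 0.38, adjusted p = 8.67e-08). Slc40a1, which encodes ferroportin, the exporter of iron into blood, had levels of 11.72, 10.83 and 11.10 in segment 1 and 9.47, 9.25 and 8.06 in segment 4 and a difference of -2.29 (SE 0.71, adjusted p = 0.0232). Its course was not graded, since the mean was 7.08 in segment 2 and 6.30 in segment 3, both below that of segment 4. Slc11a2, the apical iron importer, fell by 1.4-fold and Fth1, ferritin heavy chain, by 1.54-fold. Cybrd1, the ferric reductase of the duodenum, lay between 5.02 and 5.45 in all 6 arrays and was not called (-0.13), while its difference in the knockout was -1.46 (adjusted p = 0.0305). The difference between the genotypes itself was not called for Cybrd1. Slc40a1 (-2.35 to -1.86) was not called without replicate 1 or 3 of segment 1 or replicate 3 of segment 4.

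S100g, which encodes the calcium carrier calbindin-D9k, had levels of 13.40, 12.67 and 12.94 in segment 1 and 7.27, 7.11 and 7.09 in segment 4, a 57.5-fold difference of -5.85 (SE 1.05, adjusted p = 0.000311). Its segment 3 mean of 5.77 was also below that of segment 4. Trpv6, the apical calcium channel, lay at 6.92, 6.03 and 7.09 in segment 1 and 5.66, 5.75 and 5.63 in segment 4, with the groups apart, but its difference of -1.0 (SE 0.69, adjusted p = 0.341) was not called. In a fit of the 6 arrays alone the adjusted p was 0.0333. Vdr, the vitamin D receptor, fell 1.77-fold, and Cldn2, a claudin that forms a pore for small cations, was higher by 2.60 (6.06-fold).

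**Figure D2:**
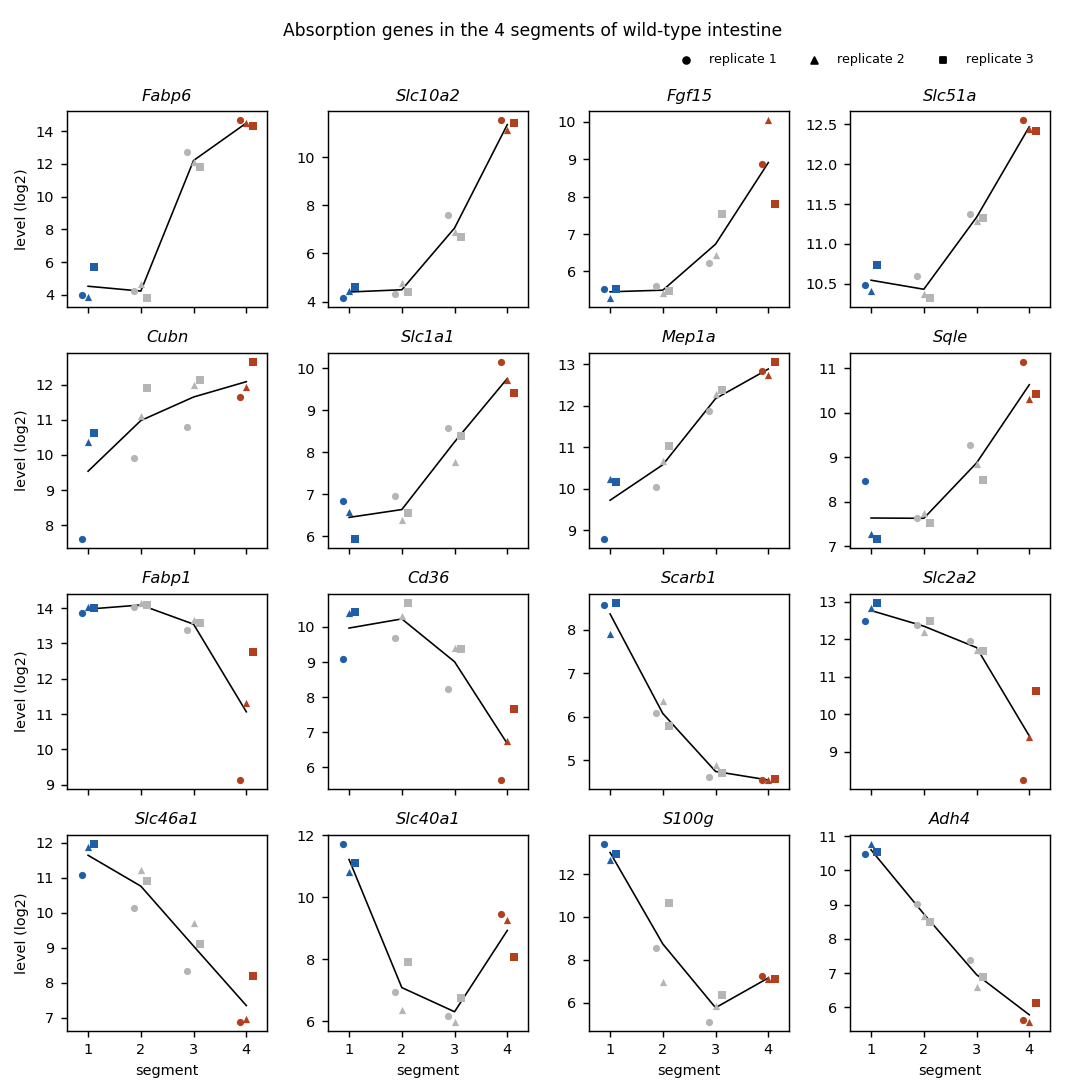
Levels (log2, vertical axes, each with its own range) of 16 genes of absorption in wild-type segments 1 to 4 (horizontal axes); symbols are the 3 replicates, blue for segment 1, red for segment 4 and grey for the middle segments, and lines join the means. Fabp6 and Slc10a2 lie near 4 in segments 1 and 2 and climb after that, Scarb1 and S100g drop by segment 2, and Slc40a1 is lower in both middle segments than at either end.

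Sugar uptake was proximal. Of the 9 measured genes 8 were lower in segment 4, with a median of -1.83, and 0 were higher. Slc2a2, which encodes GLUT2, the basolateral exit for glucose and fructose, had levels of 12.49, 12.83 and 12.97 in segment 1 and 8.24, 9.40 and 10.63 in segment 4, a 10.1-fold fall (-3.34, SE 0.36, adjusted p = 1.05e-06). Its segment 4 arrays were spread widely and replicate 3 was the highest, but the groups did not overlap. Slc2a5, the fructose importer GLUT5, fell 5.13-fold, lactase (Lct) 3.55-fold and trehalase (Treh) 5.06-fold. The exception was Slc5a1, the sodium-glucose importer SGLT1, at 13.24, 13.26 and 13.40 in segment 1 and 13.04, 13.21 and 13.17 in segment 4, a difference of -0.16 (SE 0.07, adjusted p = 0.0878) that was not called. Its relatives Slc5a4a, Slc5a4b, Slc5a11 and Slc5a9 fell by 5.09-fold, 3.26-fold, 2.62-fold and 1.93-fold, and Slc5a12, a carrier of lactate, by 3.56-fold. In the same family Slc5a6, the carrier of biotin and pantothenate, rose 4.08-fold and Slc5a7 by 0.43, while its other measured members were not called. Outside the list, Slc2a13, an inositol carrier of the Slc2a family, rose 2.65-fold. The measured glucose carriers of that family that lie outside the list were not called. Slc5a4b (-1.32 to -1.12) and Slc5a7 (0.37 to 0.41) were not called without replicate 3 of segment 1 or replicate 1 of segment 4, and Lct differed by -1.16 without replicate 1 of segment 4. Lct and Slc5a4b were not called in a fit of the 6 arrays.

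Enzymes that handle fructose and make glucose followed the same direction, 9 of 13 lower and 1 higher. Pck1, which encodes the cytosolic enzyme that commits carbon to glucose production, had levels of 9.79, 11.15 and 11.17 in segment 1 and 6.05, 7.11 and 8.29 in segment 4 and a difference of -3.55 (SE 0.71, adjusted p = 0.000895). Fbp1, G6pc and Slc37a4, which act at the end of glucose production, fell by 3.77-fold, 2.73-fold and 3.4-fold. Khk, ketohexokinase, fell 2.25-fold, and Mlxipl, which encodes the carbohydrate-sensing factor ChREBP, 1.81-fold. Tkfc, which acts on the product of fructose cleavage, fell 1.77-fold. Txnip, which restrains glucose uptake, rose 1.88-fold. G6pc (-1.10 to -0.89) was not called without replicate 2 of segment 1 or replicate 1 of segment 4, and G6pc was not called in a fit of the 6 arrays.

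Amino acid transporters moved in both directions, 6 of 17 higher and 3 lower. Without the 5 arrays high in pancreas, fat or muscle markers, 5 were called lower. Slc1a1, a carrier of glutamate and aspartate, had levels of 6.83, 6.59 and 5.93 in segment 1 and 10.16, 9.71 and 9.40 in segment 4, a 9.89-fold difference of 3.31 (SE 0.34, adjusted p = 5.31e-07). Slc6a14, which takes up neutral and basic amino acids, rose 9.8-fold, and both subunits of the cystine and basic amino acid carrier rose, Slc3a1 by 0.63 and Slc7a9 by 0.57. Slc7a8, a basolateral carrier of neutral amino acids, fell 4.75-fold (-2.25, SE 0.30, adjusted p = 1.12e-05), as did its heavy chain partner Slc3a2, by 1.62-fold. The peptide importer Slc15a1 (0.43) and the neutral amino acid importer Slc6a19 (-0.07) were not called. 

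Among brush border peptidases 7 of 13 were distal. Mep1a, a subunit of the metalloprotease meprin, had levels of 8.79, 10.23 and 10.16 in segment 1 and 12.84, 12.74 and 13.06 in segment 4 and a difference of 3.15 (SE 0.28, adjusted p = 1.03e-07). Xpnpep2, which removes residues before proline, rose 6.08-fold, and Dpep1, Dpp4 and Enpep rose by 0.96, 0.56 and 0.56. Mme, which encodes neprilysin, and Ace, the angiotensin-converting enzyme, were proximal, lower by 4.72-fold and 3.17-fold in segment 4. Ctrl, a chymotrypsin-like enzyme of the pancreas, differed by -1.32, with 9.63, 7.61 and 7.08 in segment 1, where the highest array was the one with pancreas markers. Ctrl (-1.40 to -0.56) was not called without replicate 1 of segment 1 or replicate 1, 2 or 3 of segment 4, and Ctrl was not called in a fit of the 6 arrays.

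Fat absorption genes were lower in segment 4 in 16 of 25 cases and higher in 1, with a median of -0.55. Cd36, a fatty acid receptor, had levels of 9.08, 10.41 and 10.42 in segment 1 and 5.63, 6.74 and 7.66 in segment 4 and a 9.8-fold difference of -3.29 (SE 0.50, adjusted p = 5.45e-05). Fabp1, the liver-type fatty acid carrier, had levels of 13.87, 14.03 and 14.01 in segment 1 and 9.12, 11.32 and 12.75 in segment 4 and a difference of -2.91 (SE 0.51, adjusted p = 0.000247). The segment 4 arrays of Fabp1 lay further apart than the means of the segments, although the groups did not overlap. Fabp2, the intestinal-type carrier, was near the top of the scale in both segments, with levels of 14.28, 14.36 and 14.42 in segment 1 and 14.47, 14.55 and 14.54 in segment 4 and a difference of 0.17. Fabp2 (0.13 to 0.17) was not called without replicate 1 or 2 of segment 1 or replicate 2 or 3 of segment 4, and Fabp1 differed by -1.94 without replicate 1 of segment 4. Fabp2 was not called in a fit of the 6 arrays.

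Apolipoprotein genes fell in part. Apoa4 had levels of 14.26, 14.51 and 14.55 in segment 1 and 12.63, 12.77 and 13.60 in segment 4, a 2.71-fold fall, and Apoc3 fell 2.96-fold. Apoa1 lay between 14.56 and 14.68 in all 6 arrays, where the highest value measured was 14.74, and was not called (-0.03). Mttp, the protein that loads triglyceride onto apolipoprotein B, fell by 1.67-fold, Dgat2, which makes triglyceride, by 1.99-fold and Mogat2, the first acyltransferase of the absorptive route, by 1.23-fold. Creb3l3, a liver and intestinal transcription factor of triglyceride handling, fell 1.9-fold. Mogat2 (-0.23) was not called without replicate 1 of segment 4.

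Sterol import gave a mixed picture. Scarb1, a receptor for high-density lipoprotein, had levels of 8.56, 7.91 and 8.62 in segment 1 and 4.54, 4.54 and 4.57 in segment 4, a 14.1-fold difference of -3.81 (SE 0.34, adjusted p = 1.02e-07). Npc1l1 had levels of 12.15, 12.35 and 12.56 in segment 1 and 12.75, 12.93 and 13.14 in segment 4, a rise of 0.59 (SE 0.16, adjusted p = 0.0126). Its difference was 0.18 in the knockout, where it was not called (adjusted p = 0.464). The difference between the genotypes itself was not called for Npc1l1. The sterol exporter genes Abcg5 and Abcg8 differed by -0.15 and -0.61 and Abca1 by 0.58, none called. Mylip, which encodes the ligase that marks the LDL receptor for destruction, rose 6.65-fold, a difference of 2.73 (SE 0.26, adjusted p = 1.52e-07). Npc1l1 (0.48 to 0.49) was not called without replicate 1 of segment 1 or replicate 3 of segment 4, and Abcg8 (-0.88 to -0.84) was called without replicate 1 of segment 1 or replicate 3 of segment 4. Abca1 (1.14) was called without replicate 3 of segment 1.

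Cholesterol synthesis was distal. Of the 17 measured members 12 were higher in segment 4 and 1 lower, with a median of 0.84. Sqle, which makes squalene epoxide, had levels of 8.47, 7.28 and 7.16 in segment 1 and 11.15, 10.32 and 10.42 in segment 4, a 7.96-fold difference of 2.99 (SE 0.29, adjusted p = 2.74e-07). Fdft1, which makes squalene, had levels of 8.59, 7.78 and 7.68 in segment 1 and 10.40, 9.63 and 10.08 in segment 4 and rose 4.06-fold. Cyp51, which demethylates lanosterol, rose 4.25-fold, with a difference of 2.09 (SE 0.28, adjusted p = 1.38e-05). Msmo1, Tm7sf2 and Nsdhl, which act on later sterols, rose by 1.03, 1.00 and 0.94, and Srebf2, the transcription factor of this pathway, by 0.90 (SE 0.19, adjusted p = 0.00141). The member that fell was Ebp, a sterol isomerase, by 1.46-fold, and Insig1, which holds back the activation of that factor, was not called (-0.42). In the knockout 14 members were called higher and 1 lower, with a median of 1.16. 

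Fatty acid synthesis genes split, 5 of 12 higher and 3 lower. Scd2, a desaturase, had levels of 5.69, 5.22 and 5.29 in segment 1 and 9.35, 7.94 and 8.05 in segment 4, an 8.26-fold difference of 3.05 (SE 0.25, adjusted p = 2.65e-08). Elovl5 and Fads2, which lengthen and desaturate polyunsaturated fatty acids, rose 2.77-fold and 2.23-fold. Me1, malic enzyme, fell 4.97-fold, Elovl6 2.35-fold and Srebf1, the factor that drives fatty acid synthesis, 2.15-fold, which is the opposite direction to Srebf2. Scd1 had levels of 5.33, 5.48 and 5.18 in segment 1 and 7.82, 7.57 and 7.53 in segment 4. Its arrays did not overlap, yet the difference of 2.31 (SE 0.89, adjusted p = 0.0687) was not called. In a fit of the 6 arrays alone its adjusted p was 5.87e-05. 

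Some fat cell markers were higher in the segment 4 arrays. The mean over the list in these arrays differed from that of all 24 arrays by -0.24, 0.03 and 0.09. Adipoq, the adiponectin gene, had levels of 4.21, 4.24 and 4.13 in segment 1 and 7.13, 7.69 and 7.12 in segment 4. Car3, a carbonic anhydrase of fat, had levels of 5.98, 5.51 and 5.11 in segment 1 and 8.66, 8.94 and 8.34 in segment 4. Fabp4, the fatty acid carrier of fat cells, had levels of 5.05, 5.93 and 6.10 in segment 1 and 8.36, 9.0 and 8.35 in segment 4. The groups did not overlap for any of these genes, whose differences were 3.12, 3.11 and 2.88. They were not called over all 24 arrays, with adjusted p of 0.137, 0.0966 and 0.169, but they were in a fit of the 6 arrays alone, at 6.3e-05, 0.000327 and 0.00106. That fit called 5 of the 10 measured fat markers higher, where the fit of all arrays called 0. The mean level over the 10 was 6.41 to 6.57 in segment 1 and 6.74 to 7.07 in segment 4. Pck1, Cidec and Lipe, which this list shares with absorptive or glucose-producing cells, fell. The part of fat tissue in the values of Scd1, Scd2 and Elovl5 was not tested.

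Oxidation of fatty acids was proximal in both organelles. In mitochondria 10 of 18 genes fell and 1 rose. Pdk4, a kinase that turns off pyruvate oxidation, had levels of 9.55, 10.70 and 10.48 in segment 1 and 4.16, 5.41 and 6.51 in segment 4, a 29.5-fold fall (-4.88, SE 0.77, adjusted p = 7.59e-05). Acaa2, the last thiolase of the mitochondrial cycle, fell 5.98-fold (-2.58, SE 0.27, adjusted p = 6.67e-07). Bdh1, which handles ketone bodies, fell 1.84-fold and Cpt2, a carnitine transferase, 1.45-fold, while Cpt1a, the gate of mitochondrial entry, was not called (0.21). Slc25a20, the carnitine carrier, was the member that rose (0.36). In peroxisomes 13 of 19 genes fell. Acaa1b, a peroxisomal thiolase, fell 8.52-fold (-3.09, SE 0.46, adjusted p = 4.17e-05), and Ehhadh, Acox2, Pex11a and Phyh fell by 2.44-fold, 3.33-fold, 2.21-fold and 2.16-fold. Amacr itself was lower in segment 4, with levels of 8.08, 8.43 and 8.75 in segment 1 and 7.02, 7.12 and 6.96 in segment 4 and a difference of -1.39 (SE 0.19, adjusted p = 1.44e-05). Hao2, an oxidase of hydroxy acids, was the peroxisomal gene that rose, by 0.55. Slc25a20 (0.29 to 0.35) was not called without replicate 2 or 3 of segment 1 or replicate 1 or 2 of segment 4, and Hao2 (0.47 to 0.54) was not called without replicate 3 of segment 1 or replicate 1 or 3 of segment 4. Slc25a20 was not called in a fit of the 6 arrays.

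Subunits of the respiratory chain were lower by small amounts. Of 43 measured subunits 31 were called lower and 0 higher, with a median of -0.45. The largest fall was that of Ndufa5, a complex I subunit, with levels of 11.23, 11.29 and 11.30 in segment 1 and 10.15, 10 and 9.76 in segment 4, -1.30 (SE 0.10, adjusted p = 2.24e-08). Calls came from complexes I (Ndufb10, -1.04), II (Sdha, -0.63) and III (Uqcrc1, -0.74), and from IV (Cox5b, -0.49) and the ATP synthase (Atp5d, -0.36). In the knockout 30 subunits were called lower and 0 higher. Cox5b (-0.36) was not called without replicate 1 of segment 1.

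Foreign-compound metabolism gave many of the widest falls. Of 27 measured cytochrome P450 genes 12 were lower and 0 higher. When only the 6 arrays were fitted, 6 were called lower. Cyp4a10, a fatty acid hydroxylase, had levels of 8.34, 8.60 and 9.19 in segment 1 and 3.81, 3.57 and 3.60 in segment 4, a 33.1-fold fall (-5.05, SE 0.39, adjusted p = 1.37e-08). Cyp2b10, in liver a target of the receptor CAR, had levels of 10.80, 11.60 and 12.01 in segment 1 and 6.37, 6.93 and 8.89 in segment 4 and fell 16.8-fold. Cyp1a1, which the aryl hydrocarbon receptor induces, had levels of 9.14, 8.62 and 9.21 in segment 1 and 4.94, 4.80 and 5.49 in segment 4 and fell 15.1-fold. Cyp2c29 fell 9.11-fold, Cyp2d26 3.71-fold and Cyp3a11 2.63-fold. Of the other measured Cyp3a genes, Cyp3a25 and Cyp3a13 fell by 2.19-fold and 1.56-fold, while Cyp3a44 and Cyp3a16 were not called (0.19 and -0.03). Cyp3a25 (-0.85) was not called without replicate 1 of segment 4, and Cyp2c29, Cyp2d26, Cyp3a11 and Cyp3a13 were not called in a fit of the 6 arrays.

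Conjugating enzymes and esterases were lower in 22 of 33 cases and higher in 1, with a median of -1.48, the lowest of any function list but that of sugars. Gstm6, a glutathione transferase, had levels of 9.80, 9.93 and 10.59 in segment 1 and 4.90, 4.97 and 6.37 in segment 4 and fell 25.9-fold. Genes of this family are near copies of each other, so that the probes of Gstm1 (-3.82) and Gstm3 (-3.20) may share signal. Gstt1 and Gsta4, transferases of other classes, fell by 9.54-fold and 8.79-fold. Aadac, an esterase of the endoplasmic reticulum, had levels of 11.11, 12.23 and 11.95 in segment 1 and 5.29, 7.34 and 8.52 in segment 4 and a difference of -4.71 (SE 0.54, adjusted p = 2.03e-06). The carboxylesterase genes Ces1e and Ces1g fell by 13.2-fold and 11.6-fold, and Ces2g, outside the list, by 30.5-fold. Ugt2a3 and Ugt2b38, which attach glucuronic acid, fell by 9.92-fold and 19-fold. Mgst1, a membrane-bound glutathione transferase, was the member that rose (0.44). Mgst1 (0.36 to 0.38) was not called without replicate 3 of segment 1 or replicate 2 of segment 4.

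Retinoid and alcohol metabolism was lower in 15 of 22 cases. Adh4, an alcohol dehydrogenase that acts on retinol, had levels of 10.48, 10.77 and 10.54 in segment 1 and 5.64, 5.58 and 6.12 in segment 4 and fell 28.2-fold, a difference of -4.82 (SE 0.28, adjusted p = 4.42e-10). Adh1 and Adh6a fell by 12.8-fold and 8.3-fold. Rbp2, the cellular carrier of newly absorbed retinol, fell 4.94-fold, and Retsat, a retinol saturase, 5.51-fold. Bco1, which splits carotene into retinal, was higher, with levels of 5.91, 5.77 and 5.65 in segment 1 and 6.76, 6.38 and 7.99 in segment 4 and a difference of 1.27 (SE 0.43, adjusted p = 0.0365). Bco1 (0.79 to 1.41) was not called without replicate 1, 2 or 3 of segment 1 or replicate 1 or 3 of segment 4, and Bco1 was not called in a fit of the 6 arrays.

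**Figure D3:**
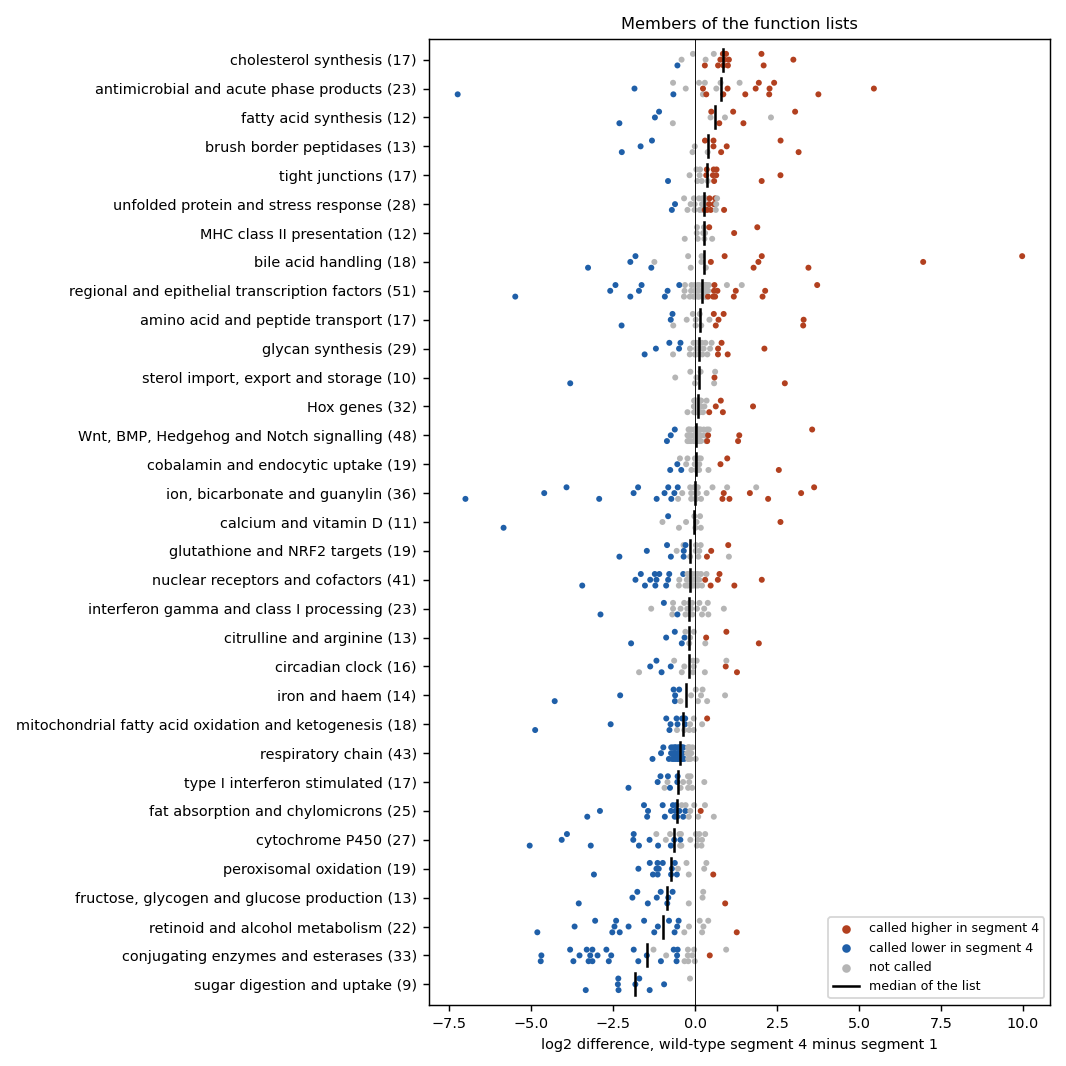
Each point is a measured member of 1 of 33 function lists (number of members in brackets), placed by its log2 difference, segment 4 minus segment 1, in wild-type arrays; colours mark genes called higher or lower and black bars the median of a list, with lists ordered by median. Medians run from -1.83 for sugar digestion and uptake to 0.84 for cholesterol synthesis, and most lists hold called genes of both directions.

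Ion and phosphate genes held several of the widest differences. Akp3, an intestinal alkaline phosphatase of the proximal gut, had levels of 11.86, 12.85 and 12.73 in segment 1 and 5.18, 5.32 and 5.91 in segment 4, a 129-fold fall. Alpi, its close relative, fell 2.26-fold, and Enpp3, a nucleotide pyrophosphatase, 15.2-fold. Slc34a2, the sodium-phosphate importer, rose 12.3-fold, with levels of 9.83, 8.66 and 9.08 in segment 1 and 12.70, 12.89 and 12.86 in segment 4. Car2, a cytosolic carbonic anhydrase, had levels of 10.84, 10.47 and 10.53 in segment 1 and 5.94, 5.66 and 6.42 in segment 4 and fell 24.4-fold, whereas Car12, a membrane-bound one, rose 4.67-fold. Slc12a2, the chloride loader of secreting cells, rose 3.17-fold, and Cftr, the chloride channel, was not called (-0.15). The water and glycerol channel genes Aqp8, Aqp3 and Aqp7 fell by 7.62-fold, 3.68-fold and 3.35-fold. Slc12a2 (1.30 to 1.79) was not called without replicate 2 or 3 of segment 1 or replicate 1 or 2 of segment 4.

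The genes of the guanylin hormones and of their receptor differed in direction. Guca2a, guanylin, had levels of 9.64, 10.34 and 10 in segment 1 and 13.18, 13.22 and 13.27 in segment 4, a 9.38-fold rise of 3.23 (SE 0.26, adjusted p = 2.65e-08). Guca2b, uroguanylin, fell by 1.66-fold, with levels of 12.48, 13.31 and 13.35 in segment 1 and 11.77, 12.24 and 12.94 in segment 4 that overlapped. Gucy2c, the receptor of both, fell 1.45-fold. Guca2b (-0.69 to -0.46) was not called without replicate 2 or 3 of segment 1 or replicate 1 or 2 of segment 4, and Gucy2c (-0.44) was not called without replicate 3 of segment 1. Guca2b was not called in a fit of the 6 arrays.

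Tight junction genes were higher in 9 of 17 cases. After Cldn2, the largest rise was that of Cldn8, with levels of 3.48, 3.47 and 3.65 in segment 1 and 5.81, 6.11 and 4.76 in segment 4 and a difference of 2.03 (SE 0.32, adjusted p = 8.49e-05). Cldn3, Cldn7 and Cldn23 rose by 0.64, 0.58 and 0.56, and Tjp1, a scaffold, by 0.65. Cldn15, which forms the sodium pore of the small intestine, was the member that fell (-0.83). Outside the list Cldn16 rose by 0.38, and the other measured claudin genes were not called. Cldn23 (0.43) was not called without replicate 1 of segment 4, and Cldn16 (0.34 to 0.39) was not called without replicate 2 or 3 of segment 1 or replicate 2 or 3 of segment 4.

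Regulators that were higher in segment 1 included known proximal factors. Onecut2, a factor of liver and duodenum, had levels of 10.12, 9.83 and 9.75 in segment 1 and 4.34, 4.23 and 4.66 in segment 4, a 44.9-fold fall (-5.49, SE 0.34, adjusted p = 7.91e-10). Gata4 had levels of 8.21, 8.03 and 8.09 in segment 1 and 6.18, 6.45 and 6.79 in segment 4 and a difference of -1.64 (SE 0.12, adjusted p = 7.71e-09), with a segment 3 mean of 7.59 that was still near segment 1. Gata6 fell by 1.79-fold, and Gata5 (0.35) and the other measured Gata genes were not called. Zfpm1, which encodes FOG1, a partner of GATA factors, fell 3.94-fold. Pdx1, a factor of pancreas and duodenum, had levels of 7.31, 6.51 and 6.67 in segment 1 and 4.41, 4.44 and 4.34 in segment 4 and was near its segment 4 level from segment 2 on, with a mean of 4.68. Meis2, a homeobox gene, had levels of 7.18, 6.34 and 6.60 in segment 1 and 4.17, 4.07 and 4.10 in segment 4 and fell 6.04-fold. 

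Distal regulators rose over different stretches. Osr2, a zinc finger factor, had levels of 4.59, 5.22 and 5.63 in segment 1 and 8.84, 8.78 and 8.98 in segment 4, a 13.2-fold rise of 3.72 (SE 0.20, adjusted p = 1.13e-10), and had a mean of 7.70 in segment 2 already. Ehf, an ETS factor of epithelia, had levels of 6.36, 5.94 and 5.66 in segment 1 and 8.35, 8.30 and 7.71 in segment 4, with 5.92 in segment 2 and a difference of 2.13 (SE 0.27, adjusted p = 6.17e-06). Foxa1, a pioneer factor, rose 4.15-fold, Cdx1, an intestinal homeobox gene, 2.26-fold, and Klf5, a factor of crypt cells, by 0.68. Cdx2, which specifies intestine, was not called (0.20), while its difference in the knockout was 1.41 (adjusted p = 0.000674). The difference between the genotypes itself was not called for Cdx2. Over the 51 measured factors, 11 rose and 9 fell (39.2% called, against 23.6% of all genes). With array weights, 19 were called higher. 

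Of 32 measured Hox genes 5 rose and 0 fell (15.6% called, against 23.6% of all genes), and in this fit all that rose belong to the Hoxb cluster. Hoxb6 had levels of 4.51, 4.63 and 4.28 in segment 1 and 6.52, 6.15 and 6.04 in segment 4 and a difference of 1.76 (SE 0.31, adjusted p = 0.000234). Hoxb9, Hoxb3, Hoxb5 and Hoxb8 rose by 0.84, 0.78, 0.63 and 0.43. The other 4 Hoxb genes measured were not called, nor were the genes of the other clusters, whose differences lay between -0.24 (Hoxc4) and 0.35 (Hoxd3). Among genes with a mean level of at least 5, 2 were called higher, and among genes with a mean level of at least 6, 0 were called higher. Hoxb5 (0.37 to 0.66) was not called without replicate 2 or 3 of segment 1 or replicate 1 of segment 4, and Hoxd3 (0.45) was called without replicate 1 of segment 1. Hoxb5 was not called in a fit of the 6 arrays.

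Nuclear receptors were lower in 13 and higher in 6 of 41 cases. Nr1i3, which encodes the xenobiotic receptor CAR, had levels of 8.76, 9.06 and 9.23 in segment 1 and 5.14, 5.24 and 6.33 in segment 4, a 10.9-fold fall (-3.45, SE 0.26, adjusted p = 1.23e-08). Nr1i2, which encodes the related receptor PXR, fell 2.35-fold, and Ahr, the aryl hydrocarbon receptor, 2.14-fold. Ppara and Pparg, receptors for fatty acids, fell by 1.73-fold and 3.16-fold, and their coactivator genes Ppargc1a and Ppargc1b by 2.9-fold and 2.32-fold. Besides Nr1h4, Nr5a2, the receptor LRH-1, rose 2.29-fold (1.19, SE 0.23, adjusted p = 0.000589) and Hnf4a 1.67-fold, while Hnf4g was not called (-0.50). Nr3c1, the glucocorticoid receptor, rose by 0.47. Ppara (-0.73 to -0.63) was not called without replicate 2 or 3 of segment 1 or replicate 1 of segment 4.

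**Figure D4:**
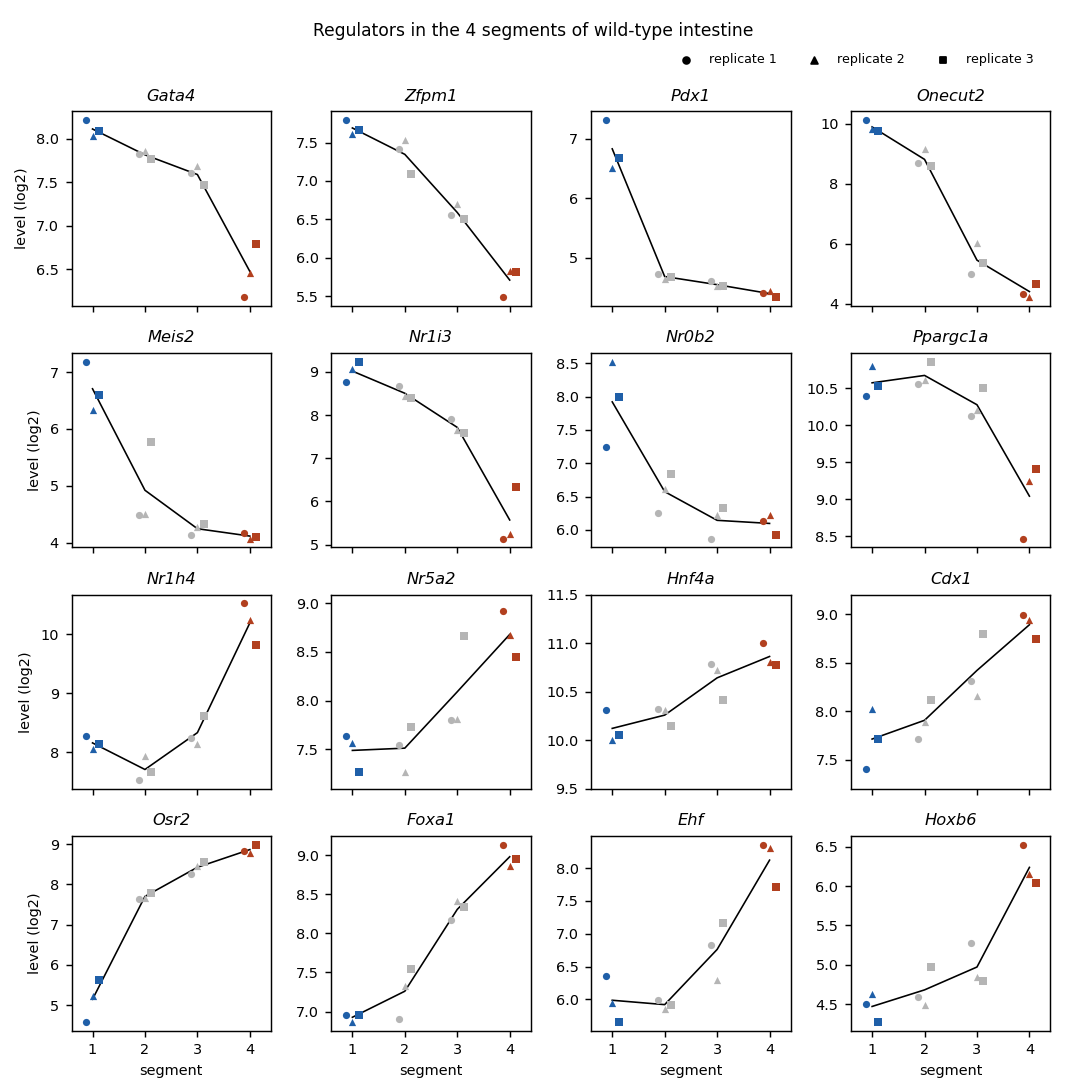
Levels (log2, vertical axes, each with its own range) of 16 regulators in wild-type segments 1 to 4 (horizontal axes); symbols are the 3 replicates, blue for segment 1, red for segment 4 and grey for the middle segments, and lines join the means. Pdx1 and Meis2 drop between segments 1 and 2, Gata4, Nr1i3 and Ppargc1a mostly after segment 3, Osr2 climbs by segment 2, and Ehf and Hoxb6 climb latest.

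Of 48 measured signalling genes 5 rose and 3 fell, or 16.7%, which is under the 23.6% of all genes. Ereg, an EGF receptor ligand, had levels of 5.17, 4.39 and 4.93 in segment 1 and 8.18, 8.32 and 8.69 in segment 4, an 11.8-fold rise of 3.57 (SE 0.32, adjusted p = 9.27e-08). Bmp2, a ligand of villus cells, and Axin2, a Wnt target, rose 2.54-fold and 2.47-fold, and Dll1, a Notch ligand, fell 1.82-fold. In this list 3 were called higher without replicate 1 of segment 1. With array weights, 9 were called higher. 

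Circadian genes were called in both directions, 2 of 16 higher and 4 lower (37.5% called, against 23.6% of all genes). Nr1d1 and Nr1d2, repressors of the clock, fell by 2.27-fold and 2.59-fold, and Cry1 and Arntl, which peak at another time of day, rose 2.42-fold and 1.91-fold. In this list 1 was called higher without replicate 3 of segment 1 or replicate 2 of segment 4, and 2 were called lower without replicate 3 of segment 1. When only the 6 arrays were fitted, 2 were called lower. Dbp, a clock output factor, spread over 6.01, 6.94 and 9.15 in segment 1 and 5.33, 5.29 and 6.34 in segment 4 and was not called, with a difference of -1.71 (SE 0.63, adjusted p = 0.0572). Replicate 1 of segment 1 was its lowest array there and replicate 3 the highest in both segments. The time of day of each sample is not given in the labels. Arntl (0.69 to 0.89) was not called without replicate 3 of segment 1 or replicate 2 of segment 4, and Dbp (-2.39 to -2.06) was called without replicate 1 of segment 1 or replicate 3 of segment 4. Nr1d1 and Nr1d2 were not called in a fit of the 6 arrays.

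Hormones of enteroendocrine cells divided by end, 5 of 25 genes higher and 6 lower. Cck had levels of 9.12, 9.48 and 9.84 in segment 1 and 6.38, 6.46 and 6.94 in segment 4 and fell 7.4-fold. Gip, the glucose-dependent insulin-releasing hormone, had levels of 10.93, 11.27 and 11.28 in segment 1 and 7.64, 8.53 and 9.31 in segment 4 and fell 6.35-fold, and Ghrl, ghrelin, fell 3.85-fold. Tph1, which starts serotonin synthesis, fell 3.39-fold. Nts, neurotensin, had levels of 7.87, 8.53 and 9.12 in segment 1 and 11.77, 11.61 and 12.28 in segment 4 and rose 10.4-fold. Pyy, peptide YY, and Gcg, the precursor of glucagon-like peptides, rose 5.57-fold and 2.43-fold. Chga, a general granule protein of these cells, was not called (0.09). In this list 2 were called higher without replicate 1 of segment 4, and 3 were called higher without replicate 2 or 3 of segment 1 or replicate 2 of segment 4. Gcg (1.15 to 1.21) was not called without replicate 1 of segment 1 or replicate 1 or 2 of segment 4.

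Goblet cell genes were higher in segment 4 in 10 of 12 cases, with a median of 0.76. Muc2, the gel-forming mucin, had levels of 12.92, 13.18 and 13.12 in segment 1 and 14.16, 14.05 and 14.16 in segment 4, a difference of 1.05 (SE 0.09, adjusted p = 5.75e-08). Agr2, which helps fold it, rose 2.61-fold, and Spdef and Atoh1, factors of secretory cells, rose by 0.66 and 0.95. Only 5 of the 19 listed Paneth cell markers were measured, and 4 of these rose. Ang4, an antimicrobial angiogenin, had levels of 8.79, 8.34 and 7.21 in segment 1 and 11.81, 12.52 and 11.28 in segment 4 and a difference of 3.76 (SE 0.77, adjusted p = 0.0011). Mmp7, which activates defensins, rose 5.3-fold and Itln1, a lectin, 4.78-fold, though near copies of both Ang4 and Itln1 exist and may share signal. Nupr1 rose 3.42-fold. Itln1 (1.90 to 2.28) was not called without replicate 2 or 3 of segment 1 or replicate 2 of segment 4.

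Of 28 markers of proliferating cells 16 rose and 0 fell, with a median of 0.69. Top2a, which untangles replicated DNA, had levels of 7.37, 6.55 and 5.77 in segment 1 and 8.28, 8.30 and 7.45 in segment 4 and a difference of 1.45 (SE 0.46, adjusted p = 0.0271). Replicate 3 had the lowest level in both segments. Ccna2 and Ccnb2, cyclins of division, rose by 1.28 and 1.21, and Mcm4, of the replicative helicase, by 0.84. This count rested on single arrays, since 2 were called higher without replicate 3 of segment 1 or replicate 2 of segment 4, and 9 were called higher without replicate 2 of segment 1 or replicate 1 of segment 4. When only the 6 arrays were fitted, 9 were called higher, and among genes with a mean level of at least 6, 10 were called higher. Of 20 stem cell markers 5 rose and 2 fell (35% called, against 23.6% of all genes). Of these markers 2 were called higher without replicate 2 or 3 of segment 1 or replicate 1 or 2 of segment 4. With array weights, 11 were called higher. Hopx and Rnf43, a brake on Wnt signalling, fell by 2.36-fold and 2.25-fold, Bmi1 rose by 0.68, and Lgr5 was not called (0.33). Top2a (1.05 to 1.44), Ccna2 (0.83 to 1.27) and Ccnb2 (0.84 to 1.21) were not called without replicate 2 or 3 of segment 1 or replicate 1 or 2 of segment 4, and Ccna2 and Ccnb2 were not called in a fit of the 6 arrays.

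Genes of antimicrobial and acute phase products were higher in 12 of 23 cases and lower in 3. Without replicate 2 or 3 of segment 1, 7 were called higher. With array weights, 5 were called lower. The Reg family split. Reg1 had levels of 13.68, 13.68 and 13.62 in segment 1 and 5.28, 6.40 and 7.56 in segment 4, a 152-fold fall (-7.25, SE 0.56, adjusted p = 1.29e-08), the largest of all 15267 genes. Reg2 and Reg4 fell as well, by 1.59-fold and 3.61-fold, and Reg3a (-0.68) and the other measured member were not called. The lectins Reg3g and Reg3b rose, Reg3g with levels of 13.60, 11.65 and 11.71 in segment 1 and 14.32, 14.29 and 13.88 in segment 4 and a difference of 1.84 (SE 0.46, adjusted p = 0.00527), and Reg3b with 0.99 (SE 0.31, adjusted p = 0.0244). Saa1, a serum amyloid that epithelium also makes, had levels of 7.38, 5.04 and 4.40 in segment 1 and 12.75, 11.78 and 8.64 in segment 4. It differed by 5.45 (SE 1.00, adjusted p = 0.000406), and replicate 3 of segment 4 and replicate 1 of segment 1 were each far from the rest of their group. Nos2 and Duoxa2, which take part in making nitric oxide and hydrogen peroxide, rose 3.84-fold and 2.88-fold. Pglyrp1, which binds peptidoglycan, rose 4.81-fold. Reg2 (-0.64 to -0.23) was not called without replicate 1 of segment 1 or replicate 2 or 3 of segment 4, and Reg3b (0.80 to 0.96) was not called without replicate 2 or 3 of segment 1 or replicate 1 or 2 of segment 4. Duoxa2 (0.96 to 1.42) was not called without replicate 2 or 3 of segment 1 or replicate 1 of segment 4, and Reg2 and Duoxa2 were not called in a fit of the 6 arrays.

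Enzymes that build glycans moved singly, 5 higher and 5 lower of 29 (34.5% called, against 23.6% of all genes). Gcnt1, which branches O-glycans, rose 4.32-fold (2.11, SE 0.31, adjusted p = 3.31e-05), and Galnt12 and Galnt3, which start them, rose by 0.99 and 0.80. Fut4, a fucosyltransferase, fell 2.92-fold and St6galnac2, a sialyltransferase, 2.3-fold, and Fut2, the secretor enzyme, was not called (0.13). In this list 3 were called higher without replicate 2 of segment 1. When only wild-type arrays were fitted or with renewed quantile normalization, 8 were called higher, and with array weights, 10 were called higher. 

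Markers of T cells and intraepithelial lymphocytes, taken as 1 list, were lower in segment 4. Of 24 measured members 12 fell and 0 rose, with a median of -0.59. Klrd1, an inhibitory receptor, had levels of 8.82, 9.16 and 9.06 in segment 1 and 7.40, 7.36 and 6.99 in segment 4 and a difference of -1.76 (SE 0.23, adjusted p = 7.29e-06). Gzmb and Gzma, granzymes, fell 2.75-fold and 2.19-fold, Itgae, the integrin that holds intraepithelial lymphocytes to epithelium, 2.04-fold and Cd8a 1.98-fold. The mean level of this list was 7.25 to 7.35 in segment 1 and 6.54 to 6.84 in segment 4, without overlap, and 6 were called lower without replicate 3 of segment 4. Gzmb (-1.07), Gzma (-0.88) and Cd8a (-0.81) were not called without replicate 3 of segment 4.

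B cell genes were called higher in 4 of 17 cases and lower in 0. The share called was thus 23.5%, against 23.6% of all genes called and 10% called higher. In this list 0 were called higher without replicate 3 of segment 1 or replicate 2 or 3 of segment 4, and 1 was called higher without replicate 1 of segment 1. When only the 6 arrays were fitted, 8 were called higher, and when only wild-type arrays were fitted, 9 were called higher, and with renewed quantile normalization or among genes with a mean level of at least 6 or with a trended and robust variance, 2 were called higher. Ms4a1, the B cell surface protein CD20, had levels of 5.50, 6.86 and 4.89 in segment 1 and 7.52, 8.65 and 9.29 in segment 4 and a difference of 2.74 (SE 0.93, adjusted p = 0.0379). Cxcl13, a chemokine of lymphoid follicles, had levels of 5.70, 7.16 and 5.18 in segment 1 and 7.80, 8.97 and 8.94 in segment 4 and rose 5.88-fold, Cxcr5, its receptor, rose 2.53-fold and Blk 1.88-fold. The mean level of the list was 5.85 to 6.74 in segment 1 and 6.75 to 7.90 in segment 4. H2-Ob and H2-DMb2, class II genes of antigen-presenting cells, rose 3.71-fold and 2.28-fold, and Marcksl1, of the epithelium over follicles, 6.62-fold, while H2-Aa, of the main class II pair, was not called (0.28). The part of lymphoid tissue in these rises was not tested. Of 12 measured class II genes 3 were called, all higher (25%), and of 9 markers of follicle epithelium 1 (11.1%). Over all genes 23.6% were called, and 10% were called higher. The class II count was 1 without replicate 3 of segment 1 or replicate 3 of segment 4. The follicle count was 2 without replicate 1 or 2 of segment 1, 3 in a fit of the 6 arrays and 4 with array weights. In the knockout 0 of the 17 B cell genes were called by limma and 6 had an unadjusted p under 0.05, with Ms4a1 at 2.40 (adjusted p = 0.058). Ms4a1 (2.31 to 2.65), Blk (0.68 to 0.97) and H2-Ob (1.54 to 1.83) were not called without replicate 1 or 3 of segment 1 or replicate 2 or 3 of segment 4, and Cxcl13 (2.14 to 2.37) was not called without replicate 3 of segment 1 or replicate 2 or 3 of segment 4. Cxcr5 (1.10 to 1.51) was not called without replicate 1, 2 or 3 of segment 1 or replicate 2 or 3 of segment 4, and H2-DMb2 (0.98 to 1.04) was not called without replicate 3 of segment 1 or replicate 3 of segment 4.

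Interferon-stimulated genes were lower where called, 7 of 17. Usp18, which restrains interferon signalling, had levels of 9.39, 8.94 and 9.15 in segment 1 and 7.76, 6.82 and 6.79 in segment 4 and a difference of -2.04 (SE 0.52, adjusted p = 0.00679). Rsad2, an antiviral enzyme, fell by 2.21-fold, and 4 were called lower without replicate 3 of segment 1 or replicate 2 of segment 4. In the list of class I processing 3 of 23 fell, or 13.0% against the 13.6% of all genes called lower, H2-Q10 by 7.41-fold, Tap2 by 1.94-fold and H2-T3 by 1.46-fold, and class I genes are near copies of each other. 

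Nitrogen metabolism held the fall of Arg2, the mitochondrial arginase, with levels of 12.56, 12.95 and 12.97 in segment 1 and 10.31, 11.04 and 11.26 in segment 4 and a difference of -1.96 (SE 0.21, adjusted p = 6.62e-07). Otc, which makes citrulline, was not called (-0.30). Over the list of citrulline and arginine 3 of 13 rose and 5 fell, and 1 was called higher without replicate 1 or 3 of segment 1 or replicate 1 or 2 of segment 4, and 2 were called lower without replicate 2 of segment 1, and 3 were called lower without replicate 2 of segment 4. Without the 5 arrays high in pancreas, fat or muscle markers, 1 was called higher. Nqo1 and Gclm, targets of the oxidant-sensing factor NRF2, fell 2.78-fold and 1.81-fold, as did Nfe2l2, its own gene, by 1.67-fold. In the list of glutathione and NRF2 targets 7 of 19 fell and 3 rose, and 0 were called higher without replicate 1 of segment 4, and 1 was called higher without replicate 2 of segment 1, and 4 were called lower without replicate 1 of segment 1 or replicate 3 of segment 4. When only the 6 arrays were fitted or when only wild-type arrays were fitted, 1 was called higher. Chaperone and stress genes rose in 8 of 28 cases and fell in 2 (35.7% called, against 23.6% of all genes). Hsp90b1, a chaperone of the endoplasmic reticulum, rose by 0.57 and Psat1, of serine synthesis, by 0.88. In this list 4 were called higher without replicate 2 or 3 of segment 1 or replicate 1 of segment 4, and 5 were called higher without replicate 2 of segment 4, and 1 was called lower without replicate 3 of segment 1 or replicate 1 or 2 of segment 4. With array weights, 13 were called higher. Gclm (-0.64) was not called without replicate 1 of segment 4, and Psat1 (0.72 to 0.81) was not called without replicate 3 of segment 1 or replicate 2 of segment 4.

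Several genes with very large differences fall outside these functions. Among the rises, Mgat4c, related to enzymes that branch N-glycans, had levels of 4.84, 4.17 and 4.03 in segment 1 and 11.04, 10.98 and 10.67 in segment 4 and rose 93.7-fold. Tmigd1, an adhesion molecule, rose 67-fold, Suox, sulfite oxidase, 40-fold, Plb1, a brush border phospholipase, 39.3-fold and Prss23, a serine protease, 33.8-fold. The gasdermin genes Gsdmc2, Gsdmc4 and Gsdme, of a family that forms membrane pores, rose 20.1-fold, 14.3-fold and 13.4-fold, the first 2 being near copies. Ddah1, which breaks down methylated arginine, rose 15.4-fold. Among the falls, Otop3, a proton channel, had levels of 10.30, 10.45 and 10.57 in segment 1 and 5.04, 5.03 and 5.06 in segment 4 and fell 42.1-fold. Ckb, a creatine kinase, fell 20.8-fold, Afp, alpha-fetoprotein, 19.3-fold, Bbox1, which makes carnitine, 14.1-fold and Slc16a9, a carnitine exporter, 12-fold. 

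**Figure D5:**
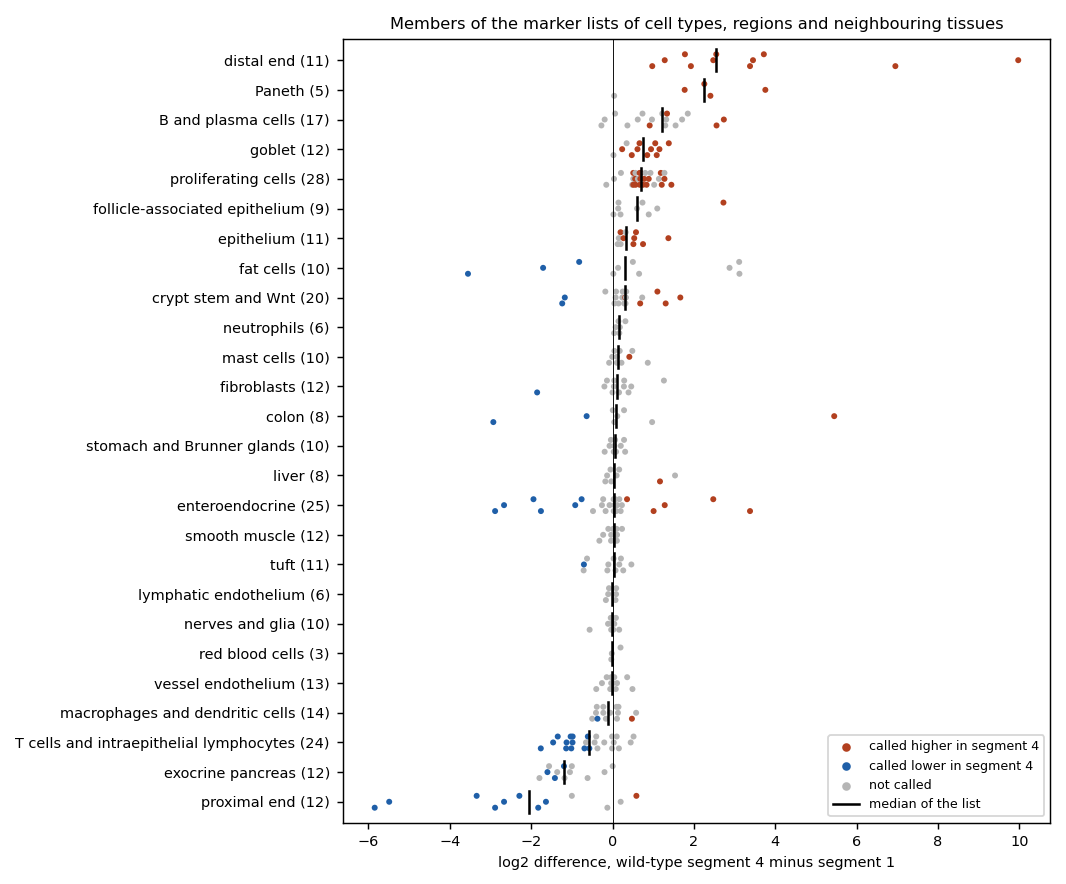
Each point is a measured member of 1 of 26 marker lists (number of members in brackets), placed by its log2 difference, segment 4 minus segment 1, in wild-type arrays; colours mark genes called higher or lower and black bars the median of a list, with lists ordered by median. Medians run from -2.06 for the proximal end to 2.55 for the distal end, and the lists of smooth muscle, vessels, nerves and red blood cells hold 0 called genes.

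The remaining lists hold markers of other cell types and tissues that a scraped layer could contain. Smooth muscle markers lay at a mean of 5.56 to 5.59 in segment 1 and 5.49 to 5.67 in segment 4, with 0 of 12 called by limma and 0 at an unadjusted p under 0.05. Of 6 lymphatic, 10 nerve, 6 neutrophil and 3 red blood cell markers 0 were called by limma, and 1, a nerve marker, had an unadjusted p under 0.05. Of the nerve markers 1 was called lower without replicate 1 of segment 1. Fibroblast markers fell in 1 of 12 cases, tuft cell markers in 1 of 11, and markers of macrophages and dendritic cells fell in 1 and rose in 1 of 14. Mast cell and liver markers rose in 1 of 10 and 1 of 8 cases. Apart from that of fibroblasts, each of these counts of 1 became 0 or 2 without at least 1 single array. The shares called, 8.33% to 14.3%, lay under the 23.6% of all genes. Pancreas markers fell in 3 of 12 cases, Pnliprp1 by 3.03-fold, Cela1 by 2.67-fold and Rnase1 by 2.29-fold. The share called was 25%, against 23.6% of all genes called and 13.6% called lower. Of these markers 1 was called lower without replicate 1 of segment 4, 5 without replicate 2 of segment 1 and 9 without replicate 3 of segment 1. Without replicate 1 of segment 1 the median of the pancreas markers was -0.13 in place of -1.19. Pnliprp1 (-1.69 to -0.57) was not called without replicate 1 of segment 1 or replicate 1, 2 or 3 of segment 4, and Rnase1 (-0.90) was not called without replicate 1 of segment 4. Pnliprp1 was not called in a fit of the 6 arrays.

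Promoter windows of the genes with 2-fold differences were searched for 10 motifs on both strands, as a description. Of the 463 proximal genes 384 had 515 windows, and of the 297 distal genes 239 had 323. The GATA site AGATAA occurred in 10.9% of proximal, 8.98% of distal and 7.83% of all 15474 windows. The HNF1 palindrome occurred in 3.30%, 1.86% and 1.00%, and the HNF4 core CAAAGTC in 7.38%, 5.57% and 4.14%. The CDX site occurred in 8.93%, 8.67% and 7.76%. The inverted repeat given for Fabp6 occurred in 2.33%, 1.55% and 1.09%, the direct repeat AGGTCANAGGTCA with up to 2 mismatches in 5.44%, 4.02% and 3.18%, and the sterol regulatory element TCACNCCAC in 2.14%, 0.929% and 1.18%. The TATA box TATAAA, which marks many genes of restricted tissues, occurred in 13.6%, 10.8% and 9.45%, the interferon-stimulated element GAAANNGAAA in 2.14%, 2.48% and 2.90% and the E-box CACGTG in 8.16%, 8.67% and 9.01%. The inverted and direct repeats share that core site, so that the same bases can count under both. S100g, the third largest fall, holds an HNF1 palindrome with 2 mismatches that begins 68 bases before the start, in capitals in its window, chrX:162964550-162964849 on the minus strand, and in lower case a TATA box that begins at base 1 after the start.
S100g: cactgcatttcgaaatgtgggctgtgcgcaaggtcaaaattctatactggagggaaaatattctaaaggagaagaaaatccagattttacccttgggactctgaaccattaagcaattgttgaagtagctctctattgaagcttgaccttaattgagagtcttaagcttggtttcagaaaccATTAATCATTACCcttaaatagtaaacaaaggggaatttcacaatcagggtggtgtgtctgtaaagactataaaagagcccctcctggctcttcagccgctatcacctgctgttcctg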

How the data were processed

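Levels were measured on 24 one-colour arrays, 3 biological replicates, per the labels, of each of 4 intestinal segments in 2 genotypes. The deposited values are log2 levels. Per the submitters' processing notes, the authors used RMA. RMA corrects the background, equalises the arrays and summarises each probe set. Neither its version nor the log base is given in the sources used here. Equalising the arrays removes any shift that all genes share. Array medians lay between 6.06 and 6.16, and the precision is limited by the 3 arrays per group.

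Of 16556 probe sets, 15270 carry 1 gene in the platform's annotation table, 0 carry several, 64 are controls and 1222 have no name here. Of the 3 genes with 2 probe sets the brighter was kept, which gave 15267 genes. A linear model over all 24 arrays with 8 group means was fitted with limma 3.58.1 in R 4.3.3, and the contrasts were segment 4 minus segment 1 in each genotype and their difference. The middle segments and the knockout arrays thus share in the estimate of spread. The p-values were adjusted by Benjamini-Hochberg over all genes at a threshold of 0.05. The fit was tested on simulated data.

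The comparison, the 33 function lists and the 26 marker lists were chosen with earlier results of these data known, and 1005 of their 1153 symbols were measured. Named are key genes of each list, its called members of largest difference, the largest rises and falls over all genes, members of named families and the genes at the edge of 2-fold. Chosen after their values were seen were Ahr, Ppara, Apoa1, Car3, Cdx2, Dbp, Insig1, Sdha, Cox5b, Atp5d and D7Ertd443e. The 19 alternatives changed the arrays in the fit, a block for replicate number, the scaling, a filter on dim genes, the probe set rule, the variance prior and array weights, or left out single arrays or the 5 arrays whose pancreas, fat or muscle markers exceeded their mean over all arrays by more than 1.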

Additional observations from a re-analysis of the deposited data

How the results depend on the processing

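The 3601 wild-type calls became 2568 to 3496 when 1 array of segment 1 or 4 was left out and 3219 to 5324 under the other 13 alternatives, the highest with array weights. Of these, at least 2-fold apart were 662 to 831 and 671 to 866, against 760. The split was 1250 higher and 2237 lower with median centring and 1717 and 1820 with renewed quantile normalization. With the replicate number as a block the calls numbered 3919 (fixed), 4109 (fixed, wild-type arrays only) and 3922 (random, within-block correlation 0.0913). The labels do not say that a number marks a mouse, so the numbers were not taken as pairs. Same-numbered wild-type arrays of segments 1 and 4 had deviations correlated at 0.40, 0.10 and 0.43, and differently numbered ones at -0.51 to 0.20. Replicate 2 of segment 1 was nearer to replicate 3 of segment 4 (0.20) than to replicate 2. The knockout count stayed within 1.5 times under each alternative that could give it, 3911 to 5809. The difference between genotypes was 0 genes, except 13 with array weights (8 higher and 5 lower). The cause was not tested. Fits of wild-type arrays alone cannot give these comparisons.

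Of the 269 called genes named, 216 were called under every one of the 19 alternatives that tested them, 44 were lost without at least 1 single array and 28 under another alternative that keeps all 6 arrays, and 0 turned sign. Of the 28, the fit of the 6 arrays lost 22, among them D7Ertd443e, and other settings lost Blk, Cldn16, Cxcr5, Mgst1, Ms4a1 and Slc12a2. Of the 32 named but not called, 15 were called under some alternative. With each of the 3 replicate blocks these were Abcg8 (adjusted p = 0.00077, 0.00627 and 0.0484), Dbp (0.0105, 0.0246 and 0.0338) and Hoxd3, and with the block over wild-type arrays also Adipoq, Gata5, Hnf4g, Reg3a, Scd1 and Trpv6. Array weights also called Car3, Fabp4, Lgr5 and Vil1, median centring Slc5a1 and the fit without replicate 3 of segment 1 Abca1. The sign turned for Slc6a19, at 0.0096 with quantile normalization and between -0.20 and 0.037 with 1 array left out, and for Cyp3a16, at 0.013 without the 5 arrays high in other markers and between -0.052 and 0.013 with 1 array left out. Most list counts that moved by over 1.5 times are given with the list, except those under a block. With array weights, 3 fat, 3 mast cell and 3 macrophage or dendritic cell markers were called higher, and without the 5 arrays high in other markers 5 fat markers. The fixed block over wild-type arrays called higher 10 B cell genes in place of 4, 17 regional factors in place of 11 and 8 glycan genes in place of 5, and called lower 10 genes of class I processing in place of 3. The random block called 8 glycan genes higher, and the fixed block over all arrays 2 B cell genes. Dim genes near the low end of the scale and genes near its top, such as Apoa1 and Fabp2, can differ by more than the arrays show, and what share of a difference comes from cell make-up was not tested.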
